A study of Mus musculus with 8 samples.

Results

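The nuclear genes for the subunits of oxidative phosphorylation were examined in the lacrimal gland (LG) of mice fed ad libitum (AL) or kept on calorie restriction (CR). Members were taken from the deposited count table by symbol alone, as genes named Ndufa, Ndufb, Ndufc, Ndufs or Ndufv with a digit, Uqcr, Cox4 to Cox8 or Atp5, together with Sdha, Sdhb, Sdhc and Sdhd. The rule found 83 genes among the 24552 in the table. By symbol, 37 of them belong to complex I, 4 to complex II, 8 to complex III, 18 to complex IV and 16 to complex V, the ATP synthase.

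The exorbital LGs came from female C57BL/6J mice aged 10 to 11 months, and gave 4 AL and 4 CR libraries. Food was cut by 40% for 4 months in CR mice, starting at 6 to 7 months. By the study's methods the cut was made in steps and CR mice received their food once a day, shortly before the dark phase. The study used more than 1 cohort with different chow, and in its second cohort the CR chow also held more vitamins and micronutrients than the AL chow. The labels do not place the libraries in a cohort, so it is not known whether chow differed between the diets here. The study describes 4 mice per diet, while the labels do not say that each library is a separate animal. The p-values below measure the spread between these libraries.

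Oxidative phosphorylation passes electrons from NADH (complex I) and succinate (complex II) to ubiquinone, on to cytochrome c through complex III and to oxygen through complex IV. The proton gradient built on the way drives complex V, which makes ATP. Complex II is wholly encoded in the nucleus, while the other complexes combine nuclear subunits with subunits encoded by mitochondrial DNA, which were not analysed here. In exocrine glands such as the LG, ATP is spent on ion transport and on protein synthesis and secretion.

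Libraries held between 12051881 and 22156511 counts in AL and between 13720079 and 19310319 in CR. Levels are given as CPM, counts scaled to a common library size with RLE factors, and 3 counts, taken as the floor, equal 0.152 to 0.231 CPM depending on the library. Reads come from the 3' ends of transcripts and carry no molecular identifiers in these files, so the floor covers counting error only, and levels are compared between libraries and not between genes. Markers of the labelled tissue were present. Secretory genes of the LG summed to between 162735 and 193835 CPM in AL and between 61058 and 157773 CPM in CR. Genes abundant in the parotid gland, which lies close to the exorbital LG, summed to between 12017 and 41279 CPM in AL and between 54535 and 299409 CPM in CR, with none of the 8 at 0 in every library. In RNA from a whole gland, fewer cells of a type and less RNA per cell cannot be told apart.

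In CR most subunits had slightly higher levels than in AL, and no single subunit passed the thresholds with diet alone in the edgeR fit. Of the 83 members, 75 had enough counts for a test, and 66 of these 75 (88.0%) had a fitted log2 fold change above 0, as did 51.1% of all 11211 genes tested. The median log2 fold change was 0.20 over the 75 members and 0.01 over all genes. To be called, a gene needed both an adjusted p under 0.05 and a change of 1.5-fold or more. By the edgeR quasi-likelihood test, adjusted by Benjamini-Hochberg 0 members were called, where 1.98% of all genes tested were called (1.20% higher and 0.785% lower in CR). The smallest adjusted p of a member in that test was 0.0927, and under DESeq2's Wald test 2 members were called, Ndufb10 and Cox7a1. Leaving out CR replicate 4 in the edgeR test also gave 2 calls, Ndufb10 higher and Uqcrb lower, as did adding the log2 library total as a covariate, an alternative chosen after the data were seen. A fit with a block for the replicate number called Uqcrb lower and Cox7a1 higher, though the numbers were not taken as pairs.

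At an unadjusted p under 0.05 in the edgeR quasi-likelihood test, 7 members (9.33%) were higher and 2 (2.67%) were lower in CR. The same limit was met by 8.62% of all genes in the higher and 8.10% in the lower direction. For 6 members (8.0%) all CR libraries exceeded all AL libraries, against 4.58% of all genes, and for 1 member (1.33%) all CR libraries lay below, against 5.20%. The count of 7 higher members changed with single libraries. Without AL replicate 2 it was 3 members, with 7.13% of all genes past the same limit, and without AL replicate 4 it was 13 members, with 8.88% of all genes. With the log2 library total as a covariate it was 16 members, with 11.3% of all genes. With the replicate block it was 17 members, also with 11.3% of all genes.

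Markers of other tissues were also fitted higher in CR, with 8 of 8 tested for the parotid gland (median log2 fold change 4.01), 10 of 10 for skeletal muscle (median 1.98) and 6 of 6 for white adipose tissue (median 1.91), while 7 of 7 macrophage markers were fitted lower (median -0.85). Their summed levels in the diets are given above for the parotid gland and beside Cox7a1 for muscle and fat. In a fit that added the mean log2 CPM of the parotid markers, the parotid score, 52 of the 75 members were fitted above 0, as were 48.8% of all genes. The score does not overlap between the diets, at 2.63 to 7.84 in AL and 9.65 to 13.1 in CR. Diet and score can thus hardly be told apart in that fit, in which 3 of all genes were called. In that fit the median log2 fold change was 0.24 over all members, 0.12 over complex I (from 0.21), 0.62 over complex II (from 0.01), 0.13 over complex III (from 0.17), 0.32 over complex IV and 0.39 over complex V (from 0.16). Members higher at an unadjusted p under 0.05 numbered 11, against 5.97% of all genes. The part of the other tissues in the shift was not tested.

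**Figure D1:**
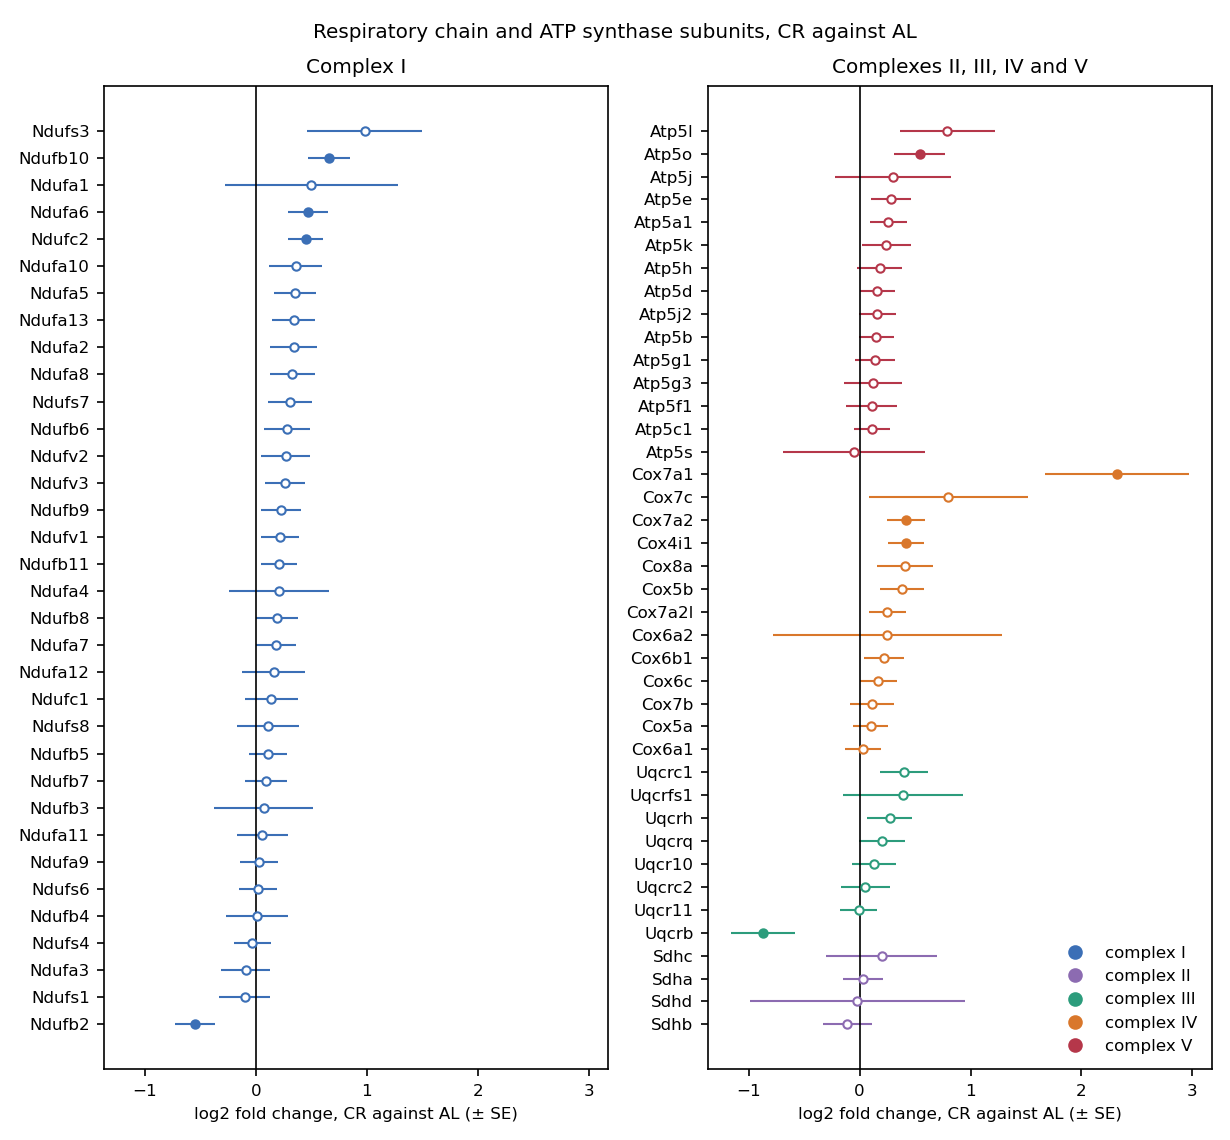
Log2 fold change of CR against AL (x axis, points with bars of 1 SE from the edgeR quasi-likelihood fit, 4 libraries per diet) for 74 of the 75 tested subunits, coloured by complex, with filled points for an unadjusted p under 0.05. Most points lie to the right of 0, from -0.87 for Uqcrb to 2.32 for Cox7a1, and 9 points are filled.

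The shift could be followed library by library. The median over the 75 members of the log2 CPM minus its AL mean was 0.07, -0.03, -0.14 and 0.08 in the AL libraries (replicates 1 to 4, the order of every list of values here) and 0.26, 0.26, 0.14 and 0.13 in the CR libraries. Each CR library thus had a median above that of every AL library. CR replicate 1 had 38 members above every AL library and 5 below, CR replicate 2 had 26 and 3, CR replicate 3 had 25 and 7, and CR replicate 4 had 27 and 12. All members together took between 0.388 and 0.419% of the counts in AL and between 0.442 and 0.547% in CR. The 10 most counted genes of each library took 69.4 to 73.4% of the counts in AL and 62.4 to 68.3% in CR. Scaled by RLE factors, the members summed to 4339, 4055, 3672 and 4639.8 CPM in AL and 5041, 4715, 4638 and 4734 CPM in CR, so that on this scale the lowest CR library lay within the AL range. With library totals alone in place of RLE factors, the median over all genes moved to 0.07, that over the members to 0.26, and 70 of the 75 members were higher.

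**Figure D2:**
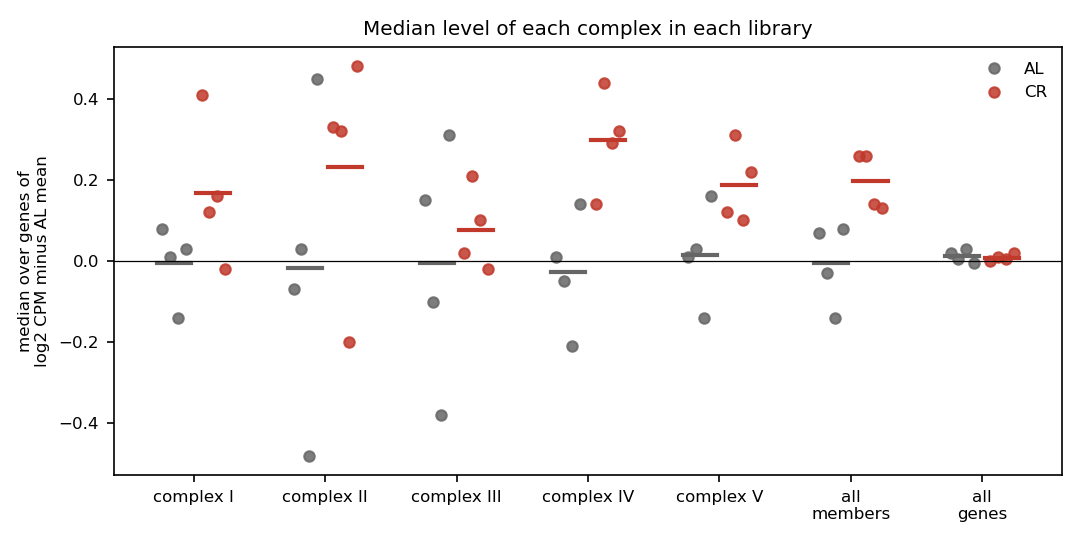
For each complex, for all members and for all genes tested, the points give 1 library each (AL grey, CR red) as the median over genes of the log2 CPM minus the AL mean of that gene, and the lines give the mean of the 4 libraries of a diet. In complex IV the CR points lie at 0.14 to 0.44 and the AL points at -0.21 to 0.14, in complexes I, II, III and V they overlap, and the medians over all genes lie near 0.

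Complex I takes electrons from NADH through a flavin and a chain of iron-sulfur clusters. Of its 35 tested subunits, 31 had a fitted value above 0 and the median log2 fold change was 0.21. By library the complex I median was 0.41 in CR replicate 1 and -0.02 in CR replicate 4, while the AL libraries lay between -0.14 and 0.08. At an unadjusted p under 0.05 in the edgeR quasi-likelihood test 3 of the 35 were higher and 1 was lower, where 8.62% and 8.10% of all genes were. These 4 are accessory subunits, which surround the catalytic core, as are most subunits of the complex.

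Ndufb10, an accessory subunit of the membrane arm (chromosome 17, 24722060 to 24724478, minus strand, GRCm38), was at 20.6, 24.3, 18.4 and 24.1 CPM in AL and at 44.0, 30.8, 35.1 and 28.3 CPM in CR. The diets did not overlap, with means of 21.9 ± 2.85 and 34.5 ± 6.87 CPM (SD, n = 4 each). The log2 fold change was 0.66 with a standard error of 0.19 (1.58-fold, adjusted p = 0.0927 in the edgeR quasi-likelihood test, adjusted by Benjamini-Hochberg). DESeq2 gave it an adjusted p of 0.0367, and so did the edgeR quasi-likelihood test without CR replicate 4, and over all fits that left out 1 library the adjusted p ranged from 0.0367 to 0.208.

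Ndufa6, an accessory subunit (chromosome 15, 82350140 to 82354322), was at 87.8, 88.7, 61.0 and 79.7 CPM in AL and at 101, 112, 130 and 95.0 CPM in CR. Ndufc2, another accessory subunit (chromosome 7, 97400003 to 97407802), was at 31.8, 25.7, 33.3 and 29.1 CPM in AL and at 40.8, 44.2, 36.9 and 41.7 CPM in CR. Neither gene's diets overlapped. The log2 fold changes were 0.47 ± 0.18 for Ndufa6 and 0.45 ± 0.16 for Ndufc2 (SE), with adjusted p of 0.208 and 0.160 in the edgeR quasi-likelihood test.

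Ndufb2, also an accessory subunit (chromosome 6, 39592574 to 39603382), was the member whose CR libraries all lay below AL. It was at 77.7, 57.5, 51.7 and 56.3 CPM in AL and at 44.1, 41.6, 33.7 and 46.9 CPM in CR, with a log2 fold change of -0.55 ± 0.18 (SE, adjusted p = 0.141 in the edgeR quasi-likelihood test). At its 3' end the gene overlaps Gm42420 on the same strand and Braf and Gm16272 on the other, and 7.83% of its 75-base windows are shared with Gm42420. The strand setting of the counting is not given in the sources used here, so reads of these genes cannot be told apart.

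Subunits of the catalytic core carry the flavin and the iron-sulfur clusters. Ndufv1 had means of 37.6 ± 4.27 CPM in AL and 43.9 ± 6.68 CPM in CR (SD), and Ndufv2 had 19.3 ± 4.24 and 23.2 ± 5.55 CPM. Ndufs1 was at 18.5 ± 4.30 and 17.3 ± 4.63 CPM. In each of these the diets overlapped, and the log2 fold changes ran from -0.10 for Ndufs1 to 0.22 for Ndufv1 and 0.27 for Ndufv2. Ndufs7 (0.31 ± 0.20, SE) and Ndufs8 (0.11 ± 0.28) overlapped as well. Ndufs3 had the highest fitted value of the complex, 0.98 ± 0.52 (adjusted p = 0.390 in the edgeR quasi-likelihood test). Its levels were 1.15, 1.72, 1.38 and 5.37 CPM in AL and 2.05, 5.50, 4.02 and 7.66 CPM in CR, and 50% of its 75-base 3' windows are shared with the pseudogene Gm12251, so its counts are uncertain. The lowest fitted values after Ndufb2 were those of Ndufs1 and of Ndufa3 (-0.09 ± 0.22).

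Complex II, succinate dehydrogenase, also works in the tricarboxylic acid cycle, and showed no shift in 1 direction. Its median log2 fold change was 0.01, with 2 of 4 genes above 0. Sdha, the flavoprotein, was at 64.6, 57.3, 68.8 and 46.3 CPM in AL and at 71.4, 63.1, 59.3 and 48.7 CPM in CR. Sdhb, the iron-sulfur subunit, was at 127, 90.3, 104 and 79.9 CPM in AL and at 128, 81.3, 93.0 and 68.6 CPM in CR. The diets overlapped in both, with log2 fold changes of 0.03 ± 0.18 for Sdha and -0.11 ± 0.22 for Sdhb (SE). The membrane anchors Sdhc (0.20 ± 0.50) and Sdhd (-0.02 ± 0.97) varied by library far more than by diet, Sdhc from 8.37 to 40.3 CPM within AL and from 8.83 to 40.6 CPM within CR. Sdhd was seldom counted, with 127 counts in all libraries together.

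Complex III moves electrons from ubiquinol to cytochrome c, and 6 of its 8 tested subunits were fitted above 0 with a median of 0.17. Uqcrc1, a core subunit, was at 20.6, 13.8, 17.5 and 18.2 CPM in AL and at 32.4, 23.4, 20.3 and 16.5 CPM in CR, with a log2 fold change of 0.40 ± 0.22 (SE), and the diets overlapped. The other core subunit, Uqcrc2, was at 53.5 ± 12.4 CPM in AL and 55.3 ± 13.1 CPM in CR (SD). Uqcrh had a log2 fold change of 0.27 ± 0.20, Uqcrq of 0.20 ± 0.21 and Uqcr11 of -0.01 ± 0.17 (SE). The Rieske iron-sulfur protein, Uqcrfs1, ranged from 8.37 to 60.6 CPM in AL and from 17.8 to 70.3 CPM in CR.

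Uqcrb, a ubiquinone-binding subunit (chromosome 13, 66900617 to 66905378), had the lowest fitted value of all members. Its levels were 86.0, 60.4, 32.7 and 80.0 CPM in AL and 30.9, 33.9, 26.5 and 49.8 CPM in CR. AL replicate 3 lay within the range of CR, and the log2 fold change was -0.87 ± 0.29 (SE, adjusted p = 0.141 in the edgeR quasi-likelihood test). With CR replicate 4 left out these values were -1.09 and 0.0419 in that test, and over all fits without 1 library the adjusted p ranged from 0.0419 to 0.322. A fit with a replicate block also called Uqcrb. Of its 75-base 3' windows 29.1% are shared with 3 pseudogenes, so its counts are uncertain.

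Complex IV, cytochrome c oxidase, reduces oxygen to water, and was the complex in which each of the tested subunits, 13 of 13, was fitted above 0. The median log2 fold change was 0.25. The median by library was 0.01, -0.05, -0.21 and 0.14 in AL and 0.14, 0.44, 0.29 and 0.32 in CR, so that CR replicate 1 and AL replicate 4 met at the edge. Complexes were not tested against each other.

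Several complex IV subunits exist as isoforms from different genes, with liver-type forms in most tissues and heart-type forms in striated muscle and, for some, in brown fat. Cox4i1, the general form of subunit 4 (chromosome 8, 120668222 to 120674207), was at 56.8, 50.7, 61.5 and 57.4 CPM in AL and at 87.4, 77.4, 77.3 and 61.7 CPM in CR. Cox7a2, the liver-type form of subunit 7a (chromosome 9, 79755361 to 79759878), was at 113, 92.1, 125 and 105 CPM in AL and at 172, 131, 136 and 144 CPM in CR. In both the CR libraries all exceeded the AL libraries, in Cox4i1 by the narrow margin of 61.7 to 61.5 CPM. The log2 fold change was 0.42 ± 0.16 (SE) for Cox4i1 and 0.42 ± 0.17 for Cox7a2, with adjusted p of 0.203 and 0.233 in the edgeR quasi-likelihood test. The 3' end of Cox4i1 overlaps Emc8 on the other strand.

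Cox7a1, the heart-type form of subunit 7a (chromosome 7, 30184144 to 30186078), had the highest fitted value of all members at low counts. It received 4, 10, 3 and 2 counts in AL and 38, 31, 12 and 19 counts in CR, which is 0.308, 0.613, 0.218 and 0.101 CPM against 2.69, 1.83, 0.742 and 1.05 CPM. The diets did not overlap, and the log2 fold change was 2.32 ± 0.65 (SE, adjusted p = 0.0927 in the edgeR quasi-likelihood test, adjusted by Benjamini-Hochberg). DESeq2 gave an adjusted p of 0.0182, and a fit with a replicate block also called Cox7a1. Over all fits that left out 1 library the log2 fold change ran from 1.95 to 2.91, with adjusted p from 0.0654 to 0.228 in the edgeR quasi-likelihood test. In the fit that added the parotid score the log2 fold change of Cox7a1 was 0.39 (adjusted p = 0.943 in that test). That score does not overlap between the diets, so diet and score can hardly be told apart there.

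Markers of skeletal muscle and of fat are given beside this result. Of 14 skeletal muscle markers 10 were tested, all 10 with fitted values above 0 (median log2 fold change 1.98) and 0 called, and the 14 summed to between 2.14 and 20.9 CPM in AL and between 5.09 and 87.8 CPM in CR. White adipose markers were fitted above 0 in 6 of 6 tested, with 1 called, a median of 1.91 and sums of 9.54 to 20.2 CPM in AL and 25.1 to 103 CPM in CR. The 6 brown adipose markers summed to between 1.27 and 4.72 CPM in AL and between 1.24 and 5.77 CPM in CR, Ucp1 was at 0.0306 ± 0.0613 CPM in AL and 0.0148 ± 0.0296 CPM in CR (SD), and Cpt1b had 0 counts in every library. Ucp1 was picked from its list after its values were seen, and the part of muscle and white fat in the Cox7a1 difference was not tested.

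The diets overlapped in the other isoforms. Cox6a1, the liver-type form of subunit 6a, was at 139 ± 17.3 CPM in AL and 141 ± 6.23 CPM in CR (SD), while its heart-type form Cox6a2 ranged from 0 to 0.963 CPM in AL and from 0 to 1.22 CPM in CR. Cox6b1 was at 62.4 ± 12.8 and 72.8 ± 4.48 CPM, Cox7b at 51.9 ± 11.6 and 56.0 ± 9.36 CPM, and Cox7a2l at 36.8 ± 3.71 and 43.8 ± 7.49 CPM. Cox8a, the liver-type form of subunit 8, was at 86.6, 110, 74.1 and 163 CPM in AL and at 106, 151, 172 and 150 CPM in CR (log2 fold change 0.41 ± 0.25, SE). Ndufa4, named for complex I although its protein is now counted as a complex IV subunit, had a log2 fold change of 0.21 ± 0.45.

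**Figure D3:**
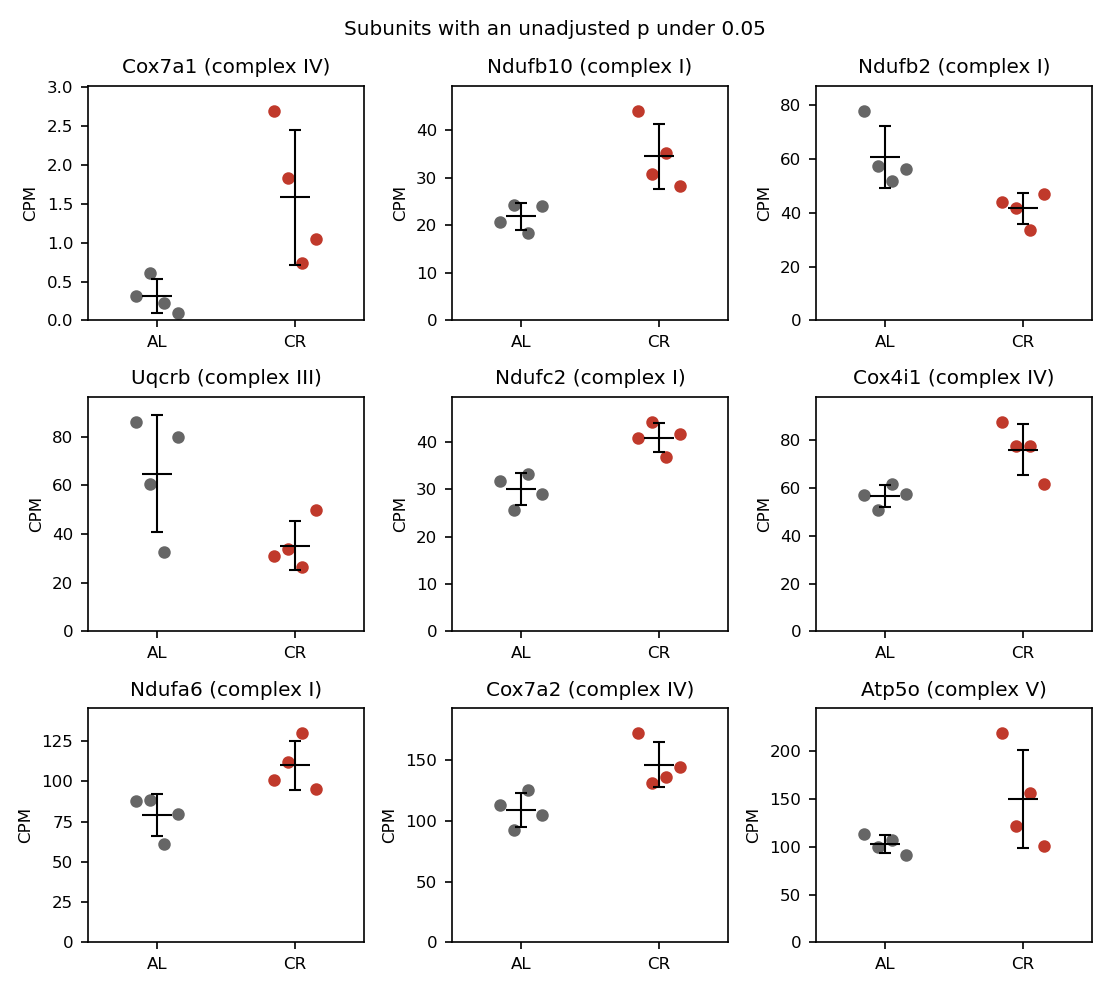
CPM on linear axes from 0 for the 9 subunits with an unadjusted p under 0.05, with a point for each of 4 AL (grey) and 4 CR (red) libraries and bars for the mean ± SD. Ndufb2 and Uqcrb are lower in CR and the other 7 higher, and the diets overlap for Uqcrb and Atp5o only.

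Too few counts were found to test 8 of the 83 members, most of them isoforms known from other tissues. Cox8b, the heart-type form of subunit 8, received 0, 3, 5 and 0 counts in AL and 4, 9, 7 and 12 in CR, that is 0.137 ± 0.174 against 0.478 ± 0.162 CPM (SD, n = 4 each). The diets overlapped, and the exact permutation test (two-sided, with 0.0286 as the smallest p that 4 against 4 allow) gave p = 0.0571, or 0.286 adjusted over the 5 rare members with at least 10 counts. For Atp5g2 the means were 0.0599 ± 0.0432 and 0.285 ± 0.203 CPM (exact permutation p = 0.143, adjusted 0.357), and 40.9% of its windows are shared with 3 other genes, so its counts are uncertain. Cox6b2, Ndufa4l2 and Cox8c received 25, 11 and 12 counts in all, and their adjusted exact p values ran from 0.607 to 1.0. Cox4i2 received 4 counts, Cox7b2 received 6, all in AL replicate 3, and Ndufs5 received 0 in every library. Of the 3' windows of Ndufs5 17.2% are shared with the pseudogene BC002163, which received 23 to 39 counts in each library. Whether reads of Ndufs5 were counted there was not tested, and no limit on its level is given.

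Complex V had 14 of 15 tested members, assigned by symbol, fitted above 0 and a median of 0.16. Atp5a1 and Atp5b, which form the catalytic head, were at 127 ± 15 and 124 ± 13.7 CPM in AL and at 152 ± 17.9 and 138 ± 8.70 CPM in CR (SD). The diets overlapped in both, with log2 fold changes of 0.26 ± 0.17 and 0.15 ± 0.16 (SE). Atp5e, a small subunit of the central stalk, was at 143 ± 23.1 and 173 ± 18.5 CPM.

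Atp5o, the subunit that ties the catalytic head to the peripheral stalk, has its RefSeq promoter on chromosome 16 at 91931581 to 91931880 (minus strand). Atp5o was at 113, 99.6, 107 and 91.6 CPM in AL and at 219, 122, 156 and 101 CPM in CR. CR replicate 4 lay within the AL range and CR replicate 1 far above, and the log2 fold change was 0.54 ± 0.23 (SE, adjusted p = 0.257 in the edgeR quasi-likelihood test). Of the 75-base windows of transcripts under its symbol 27% are shared with Donson and with the pseudogene Gm5436. The annotation entry read for that symbol, 91684398 to 91926982, overlaps Donson on the same strand but does not reach the promoter given above. Whether these windows are those of the subunit gene was not tested, so its counts are uncertain. Atp5l had a log2 fold change of 0.79 ± 0.43 at 2.85 ± 1.55 CPM in AL and 4.99 ± 2.34 CPM in CR (SD), and 63.4% of its windows are shared with 9 pseudogenes, so its counts are uncertain. Among the genes for the ring subunit c, which encode the same mature protein, Atp5g3 was at 336 ± 102 and 366 ± 69.1 CPM and Atp5g1, with 31% of its windows shared with other genes, at 19.8 ± 1.02 and 21.9 ± 4.59 CPM. Atp5s, placed in this complex by its symbol alone, was at 0.803 ± 0.633 and 0.787 ± 0.293 CPM, with 107 counts in all libraries together. It was the tested member of this complex fitted below 0 (-0.05 ± 0.64, SE).

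A set of 11 subunits from complexes I to V varied from library to library within a diet by an SD of log2 CPM over 0.75, a limit set after the values were seen. They were Sdhd, Ndufa1, Cox6a2, Cox7c, Uqcrfs1, Atp5j, Sdhc, Ndufb3, Ndufs3, Atp5s and Ndufa4, or 14.7% of the members tested, where 16.5% of all genes passed the same limit. Ndufa1, a small membrane subunit of complex I, was at 13.2, 21.7, 5.24 and 75.7 CPM in AL and at 9.47, 39.8, 14.4 and 101 CPM in CR. Cox7c, a complex IV subunit, was at 10.2, 19.7, 4.59 and 51.8 CPM in AL and at 7.56, 49.8, 16.1 and 77.9 CPM in CR. Of the windows of Cox7c 22.8% are shared with 2 pseudogenes, so its counts are uncertain. In both genes replicate 4 of each diet was highest, and the lowest libraries were AL replicate 3 and CR replicate 1.

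The same libraries stood out across these subunits. AL replicate 4 was the highest AL library for 10 of the 11 and CR replicate 4 the highest CR library for 10, and for 10 both held, as for 22.7% of the 1849 genes with an SD over that limit. AL replicate 3 was lowest for 9 and CR replicate 1 for 10. The library totals had the same order as the median of these subunits in AL, with 14539103, 16070697, 12051881 and 22156511 counts, and were 14409086, 16829251, 13720079 and 19310319 in CR, where replicates 1 and 3 changed places. The median log2 CPM of these 11 above the AL mean was -0.48, 0.29, -1.36 and 1.29 in AL and -0.71, 0.83, -0.19 and 1.53 in CR. In the other 64 members it was 0.11, -0.04, -0.09 and 0.03 in AL and 0.33, 0.19, 0.17 and 0.03 in CR. The 64 had a median log2 fold change of 0.18 with 57 above 0, and the 11 a median of 0.25 with 9 above 0. With the log2 of the library total as a covariate, a fit added after the data were seen, 68 of the 75 members were fitted above 0, the median was 0.20, and Ndufb10 and Uqcrb were called. The part of depth in the spread of the 11 was not tested.

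**Figure D4:**
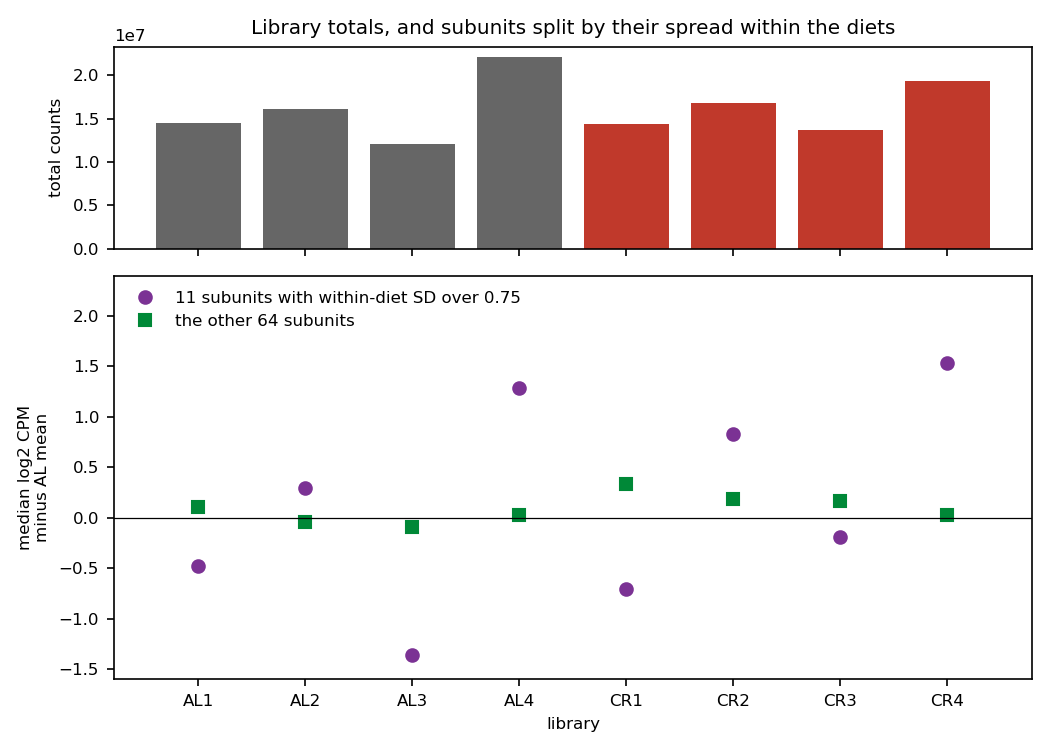
Upper panel, the total counts of each library (y axis, bars from 0, AL grey, CR red), and lower panel, the median log2 CPM minus the AL mean of the 11 variable subunits (circles) and the other 64 (squares). The circles run from -1.36 to 1.53 and are highest in replicate 4 of each diet, where the totals are largest, while the squares stay between -0.09 and 0.33.

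Promoter sequences were read for the members because 66 of the 75 tested were fitted above 0, mostly by a small amount. The members were not tested as a set. RefSeq (GRCm38.p6) gave promoters of 68 of the 83 members, 73 in all, from 250 bases before to 50 after the start. The searched letters, on both strands, were GCATGCGC for NRF1, AAGATGGC for YY1, CCGGAAGT for ETS factors and TCAAGGTCA for estrogen-related receptors (ERR), factors known to act on genes of mitochondria. GCATGCGC was in 13.7% of member promoters, 5.25% of promoters of genes tested and 2.71% of all 32851 promoters. AAGATGGC was in 13.7, 4.51 and 2.75%, CCGGAAGT in 6.85, 8.05 and 3.89%, and TCAAGGTCA in 2.74, 0.266 and 0.423% of the same sets. These shares describe the letters and were not tested, and NRF1's letters can overlap themselves on the other strand.

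The promoters shown are those of Ndufb10 and Cox7a1, the members with the smallest p, of Ndufb2, the member whose CR libraries were all lower, and of Ndufa6, which among the members with an unadjusted p under 0.05 and a promoter was alone in holding any of the letters searched. Capitals mark these letters, and the sequences run 5' to 3' on the strand of the gene.
Ndufb10 promoter, chr17:24724374-24724673, minus strand: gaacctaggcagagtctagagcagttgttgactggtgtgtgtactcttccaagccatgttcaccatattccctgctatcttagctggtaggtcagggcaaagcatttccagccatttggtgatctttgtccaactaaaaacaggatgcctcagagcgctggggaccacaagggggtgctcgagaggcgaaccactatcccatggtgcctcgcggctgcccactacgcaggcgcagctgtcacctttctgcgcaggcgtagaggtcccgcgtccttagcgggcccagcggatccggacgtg
Cox7a1 promoter, chr7:30183921-30184220, plus strand: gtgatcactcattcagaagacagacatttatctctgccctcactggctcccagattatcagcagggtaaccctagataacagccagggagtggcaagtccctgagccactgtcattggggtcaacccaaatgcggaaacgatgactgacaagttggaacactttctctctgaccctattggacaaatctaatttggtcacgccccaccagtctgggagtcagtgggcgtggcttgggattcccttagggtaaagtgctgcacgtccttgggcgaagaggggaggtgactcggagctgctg
Ndufb2 promoter, chr6:39592315-39592614, plus strand: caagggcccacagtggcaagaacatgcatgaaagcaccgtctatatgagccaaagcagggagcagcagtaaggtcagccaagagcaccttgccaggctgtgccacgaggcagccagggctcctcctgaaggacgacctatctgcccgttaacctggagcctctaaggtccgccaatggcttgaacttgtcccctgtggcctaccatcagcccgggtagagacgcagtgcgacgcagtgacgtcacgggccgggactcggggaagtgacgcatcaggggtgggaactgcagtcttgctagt
Ndufa6 promoter, chr15:82354242-82354541, minus strand: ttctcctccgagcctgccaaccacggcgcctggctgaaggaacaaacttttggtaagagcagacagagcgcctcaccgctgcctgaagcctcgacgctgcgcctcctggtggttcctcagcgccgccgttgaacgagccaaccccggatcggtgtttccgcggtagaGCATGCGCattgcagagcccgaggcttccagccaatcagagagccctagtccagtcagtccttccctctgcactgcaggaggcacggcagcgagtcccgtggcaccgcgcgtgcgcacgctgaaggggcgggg
Ndufa6 holds GCATGCGC, as do 10 members in all, among them Ndufa8, Ndufa11, Sdhb, Uqcrc1, Uqcr11, Cox6a1, Atp5k, Atp5l and Atp5g2, the last of which was not tested. The log2 fold changes of the tested ones ranged from -0.11 for Sdhb to 0.79 for Atp5l. The YY1 letters were in promoters of Ndufa3, Ndufa9, Ndufb8, Ndufc1, Ndufs4, Ndufs6, Ndufs7, Atp5f1, Atp5j and Atp5j2, with log2 fold changes from -0.09 for Ndufa3 to 0.31 for Ndufs7. These genes were named for their promoter letters after the sequences were read.

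Other genes of the pathway did not all follow the subunits. The list of subunits whose symbols fall outside the rule had 3 of 5 fitted above 0, a median of 0.30 and 0 called in the edgeR quasi-likelihood test. Cyc1, the cytochrome c1 of complex III, was at 20.5 ± 3.5 CPM in AL and 26.0 ± 1.75 CPM in CR (SD), and Ndufab1, an acyl carrier protein in complex I, at 12.3 ± 4.14 and 9.37 ± 1.07 CPM, both with overlap. Assembly factors of the complexes had 23 of 46 above 0, a median of 0.0014 and 0 called. The proteins that carry electrons between complexes and the other quinone-reducing enzymes had 3 of 7 above 0 and a median of -0.17, with cytochrome c, Cycs, at 5.87 ± 1.48 and 5.19 ± 1.53 CPM.

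Enzymes of the tricarboxylic acid cycle other than succinate dehydrogenase had 10 of 14 above 0, a median of 0.18 and 0 called, and citrate synthase, Cs, had a log2 fold change of -0.16 ± 0.31 (SE). Pyruvate dehydrogenase and its kinases had 5 of 9 above 0 (median 0.06, 0 called), and mitochondrial protein import 11 of 15 (median 0.10, 0 called). Ubiquinone synthesis had 6 of 12 above 0 and a median of 0.04. In it Coq8a, a kinase-like protein of that pathway, rose from 2.31, 2.76, 3.42 and 3.09 CPM in AL to 11.0, 9.88, 7.61 and 4.44 CPM in CR without overlap (log2 fold change 1.5 ± 0.31, SE, adjusted p = 0.0334 in the edgeR quasi-likelihood test). The call held without CR replicate 4 and was lost without any 1 of the other 7 libraries (adjusted p from 0.0571 to 0.116 in that test) and in a fit that added the parotid score (log2 fold change 1.07, adjusted p = 0.564). The score does not overlap between the diets.

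Carriers that exchange ATP, ADP and phosphate across the mitochondrial membranes had 6 of 6 above 0, a median of 0.44 and 0 called. At an unadjusted p under 0.05 in the edgeR quasi-likelihood test there were 3, Slc25a5, Vdac1 and Vdac2, the last named after its value was seen. Slc25a5, an exchanger of ADP and ATP, was at 7.16, 10.3, 3.64 and 16.0 CPM in AL and at 14.7, 30.5, 13.7 and 34.1 CPM in CR, and overlapped (log2 fold change 1.32 ± 0.42, SE, adjusted p = 0.128 in that test). Replicate 4 of each diet was again highest. Slc25a4, the heart-type exchanger, was at 9.66 ± 2.15 and 13.4 ± 2.48 CPM, and Vdac1, a channel of the outer membrane, at 27.5 ± 2.26 and 38.4 ± 5.88 CPM (SD).

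Regulators of mitochondrial genes had 6 of 13 above 0 and a median of -0.04. Among them Ppargc1a, a coactivator known for its action on genes of oxidative phosphorylation, was at 5.93, 3.31, 2.04 and 0.659 CPM in AL and at 23.5, 32.1, 25.6 and 3.44 CPM in CR. CR replicate 4 lay within the AL range, and the log2 fold change was 2.85 ± 0.66 (SE, adjusted p = 0.0497 in the edgeR quasi-likelihood test), just under the threshold. The call was lost with TMM in place of RLE factors, where the adjusted p just reached the threshold. It was also lost without any 1 of the other 7 libraries (adjusted p from 0.0630 to 0.158 in that test) and held with CR replicate 4 left out (log2 fold change 3.21, adjusted p = 0.00215 in that test). In a fit that added the parotid score it was -0.23 (adjusted p = 0.948 in the edgeR quasi-likelihood test). Diet and this score can hardly be told apart. Tfam, which packages and transcribes mitochondrial DNA, was at 5.42 ± 2.24 and 4.25 ± 1.28 CPM (SD). Of the uncoupling proteins 1 was tested, Ucp2, with a log2 fold change of 1.10 ± 0.37 (SE, adjusted p = 0.151 in that test).

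**Figure D5:**
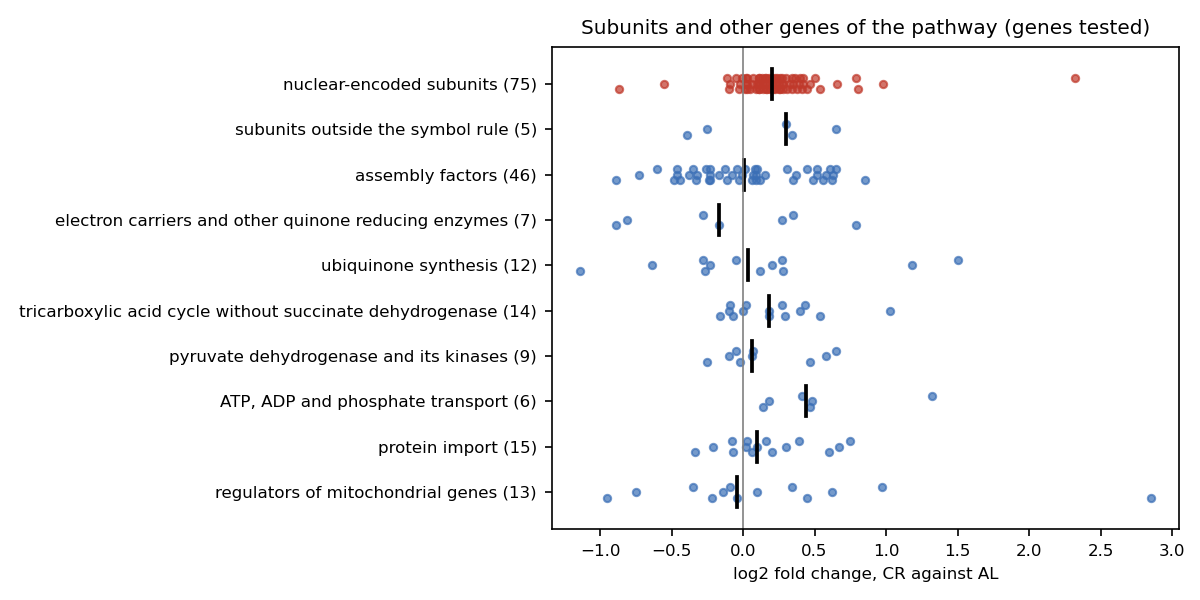
Log2 fold change of CR against AL (x axis) for each tested gene of the nuclear-encoded subunits (red) and of the other pathway lists (blue), with black lines at the medians and the number of genes tested in parentheses. The median is 0.20 for the subunits, 0.0014 for assembly factors and 0.44 for the carriers of ATP, ADP and phosphate, and the point at 2.85 is Ppargc1a.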

How the data were processed

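RNA of 8 LGs was sequenced from transcript 3' ends with a QuantSeq 3' FWD kit, 4 libraries per diet. Per the study's methods, the authors used cutadapt for trimming, STAR for alignment to mm10 and HTSeq for counting, and deposited the counts per gene. The versions are not given in the sources used here. The deposited log2 values were made by the authors from the counts with DESeq2's RLE size factors, a pseudocount of 1 and a log2. Recomputing them gave the same values to within 5e-14, so only the counts were analysed.

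Of 24557 rows, 5 with repeated symbols were dropped. Diets were compared with edgeR 4.0.16 (R 4.3.3) on the 11211 genes that passed filterByExpr, with RLE factors, quasi-likelihood tests and Benjamini-Hochberg adjustment over all of them, and standard errors were taken from the fold change and its F statistic. The biological coefficient of variation was 34.7%. Log2 CPM used a prior count of 2. The script was tested on simulated data. Rare members with at least 10 counts were compared by two-sided exact permutation tests.

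Members and gene lists were chosen with earlier results of these data known. Named are members among the 3 smallest p in each direction of a complex, isoform families, succinate dehydrogenase, subunit c and the catalytic core, and, in the pathway lists, genes called and a few set by name. Other genes are marked where they appear, and 1 member is not reported here. Complexes were assigned by symbol. Positions and 3' ends come from GENCODE vM21 (GRCm38), with 75-base windows searched in the last 600 bases of transcripts. Alternatives were TMM factors, library totals, leaving out the 50 most counted genes, DESeq2 1.42.0, limma 3.58.1 voom with sample weights, other filters, no fold-change limit, a replicate block, the parotid score as a covariate, leaving out each library and, added later, the library total as a covariate. Depth limits rare genes to the floor given in the text.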

Additional observations from a re-analysis of the deposited data

Results flagged for a closer look

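Within each diet, the highest and the lowest of the 4 libraries were checked for a gap to the nearest library, as a share of the diet's range, above Dixon's critical value in each of the 40 named and tested members, that is in 80 groups of 4 libraries. Chance flags about 1 in 20 such groups, and 4 were found. Ndufa3 was at 63.1 CPM in CR replicate 4 and between 47.7 and 48.5 CPM in the other CR libraries, and without that library its log2 fold change was -0.20. Ndufs3 was at 5.37 CPM in AL replicate 4 and between 1.15 and 1.72 CPM in the other AL libraries, and its log2 fold change was 1.75 without that library. Cox7a2l was at 42.4 CPM in AL replicate 3 against 34.4 to 35.6 CPM in the other AL libraries, with a log2 fold change of 0.32 when it was left out. Cox7b was at 34.7 CPM in AL replicate 3 against 55.8 to 59.8 CPM in the rest of AL, with a log2 fold change of -0.04 when it was left out.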

How the results depend on the processing

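The number of members called, 0, became 2 under DESeq2, with the library total as a covariate (added later) and with the replicate block, and ranged from 0 to 2 when 1 library was left out. Calls over all genes, 222, became 704 under DESeq2, 397 under limma voom, 436 without the filter, 700 with the block, 3 with the parotid score and 632 with the library total, and ranged from 61 without AL replicate 2 to 700 without CR replicate 4. Calls in the pathway lists, 2, became 1 under TMM factors, 7 with the block, 0 with the parotid score and 4 with the library total, and ranged from 0 to 4 without 1 library. Medians were 0.12 (complex I, from 0.21), 0.62 (complex II) and 0.39 (complex V) with the parotid score, and ranged from -0.10 to 0.35 (complex II) and from 0.19 to 0.40 (complex IV) without 1 library. Members fitted above 0 numbered 52 of 75 with the parotid score, whose AL values of 2.63 to 7.84 and CR values of 9.65 to 13.1 do not overlap, and 57 to 68 without 1 library. Members higher at an unadjusted p under 0.05, 7, numbered 17 with the block (11.3% of all genes), 16 with the library total (11.3%) and 11 with the parotid score (5.97%). Of 716 alternative values for the 40 named members, 654 kept their direction and side of the thresholds, 54 changed sign and 8 were newly called. With the parotid score the log2 fold change was 0.64 for Ndufa3, -0.29 for Ndufs7, -0.26 for Ndufv1, -0.56 for Sdha, 3.22 for Sdhd, 0.29 for Uqcr11, -0.26 for Uqcrh, -0.09 for Cox7b and 0.86 for Atp5s. Sdhd was at 0.05 with library totals, 0.01 under DESeq2, 0.18 with the block and 0.49 with the library total as a covariate, Atp5s at 0.04, 0.18 and 0.11 with totals, block and covariate, and Uqcr11 at 0.07, 0.02 and 0.0012 with totals, limma voom and block. Under limma voom Ndufa4 was at -0.17 and Uqcrc2 at -0.003. Without 1 library, values ranged over 0 for Ndufa3 (-0.24 to 0.12), Ndufa4 (-0.31 to 0.54), Ndufs1 (-0.22 to 0.07), Ndufs8 (-0.14 to 0.30), Sdha (-0.07 to 0.12), Sdhb (-0.30 to 0.03), Sdhc (-0.20 to 0.78), Sdhd (-0.62 to 1.25), Uqcr11 (-0.12 to 0.08), Uqcrc2 (-0.12 to 0.17), Uqcrfs1 (-0.01 to 0.95), Cox6a1 (-0.04 to 0.11), Cox6a2 (-0.34 to 0.79), Cox7b (-0.04 to 0.19), Atp5g3 (-0.08 to 0.26) and Atp5s (-0.36 to 0.39). The cause of these changes was not tested. Residuals of same-numbered libraries correlated at 0.15, 0.08, 0.24 and 0.46 for replicates 1 to 4 over all genes and at 0.65, 0.36, 0.57 and 0.89 over the members, and 5 of 8 libraries were closest to their own number. The numbers were not taken as pairs, since replicate 2 was under the limit of 0.1 over all genes. The block called Uqcrb (-0.82) and Cox7a1 (2.36).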

Other observations

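The marker lists gave the following values. Of the LG secretory genes 8 of 8 tested were fitted lower in CR (median log2 fold change -3.04, 3 called), and of the parotid markers 8 of 8 were higher (median 4.01, 3 called), by the edgeR quasi-likelihood test, adjusted by Benjamini-Hochberg. Prol1, an LG secretory gene with too few counts for that test, went the other way. It was at 0.216 ± 0.205 CPM in AL and 3.17 ± 2.05 CPM in CR (SD), without overlap. Macrophage markers were fitted lower in 7 of 7 (median -0.85, 0 called) and myoepithelial markers in 5 of 5 (median -0.68, 0 called). Fibroblast markers were lower in 5 of 6 (median -0.66), plasma cell markers in 2 of 3 (median -1.18), and the only testable B cell, T cell and brown adipose markers were at -2.99, -0.91 and -0.44. Duct cell markers were higher in 4 of 5 (median 0.31), and of the white adipose markers 1, Fabp4, was called higher.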
